A study of Mus musculus with 4 samples.

Results

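Caveolae are flask-shaped pits of the plasma membrane that are abundant in the endothelium of the heart, where they carry signalling receptors, buffer membrane tension and take part in transport across the vessel wall. Caveolin proteins insert into the membrane and cavin proteins form a coat over them, while EHD ATPases and the membrane-bending protein PACSIN2 sit at the neck of the pit. PLVAP spans the neck opening of caveolae and the openings of fenestrae as a thin diaphragm. The genes described here are the caveolins Cav1, Cav2 and Cav3, the cavins Cavin1 (formerly Ptrf) and Cavin2 (formerly Sdpr), the diaphragm gene Plvap, and the neck genes Ehd2, Ehd4 and Pacsin2. They are 9 of the 18353 genes named on the array, and every probe whose RefSeq accession maps to one of these symbols was taken, which gave 15 of 41174 non-control probes. The genes were put together with earlier results of this comparison known, that is, they were chosen by function and with the measured differences between G2-EC-KO and control in view. The differences below are therefore given as a description, and no test is used to support the choice.

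The study compared endothelial cells isolated from adult hearts of G2-EC-KO mice, which the labels also describe as a Gata2 knock out, with the same cells of control mice described as wild type. Each group has 2 samples, and each sample was hybridised with Cy3-labelled RNA to 1 Agilent 1-colour array. The promoter that drives the deletion in endothelium, the age beyond adult and whether replicates came from separate animals are not given in the sources used here, so the spread between replicates may be technical in part. Gata2 codes for a DNA-binding protein with zinc fingers that controls genes in blood cells and endothelium.

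Levels are in log2 units relative to the 75th percentile of each array, so 0 is the signal that 75% of probes do not exceed, and a difference of 1 unit is a doubling of the signal. A level can be compared between arrays for 1 probe, but not between probes. Signal well above background was seen at 63.8% to 66.5% of probes per array, and 0 spots were saturated. All 4 arrays lay on 1 slide, with the G2-EC-KO arrays at positions 3 and 4 and the control arrays at positions 1 and 2, so position and group cannot be told apart. The 12 endothelial markers were well above background on all 4 arrays. Of these 6 read higher and 6 lower in G2-EC-KO. The groups did not overlap at 2 of the higher and 4 of the lower markers, against 23.8% and 22.6% of all probes. The median log2 change of the 12 markers, -0.032, lay between -0.11 and 0.019 with 1 array left out. The lowest was the transcription factor gene Erg at -0.37 (SE 0.13), named after its value was seen, and the 3 with the highest signal, Flt1, Emcn and Robo4, had log2 changes of 0.0066 (SE 0.11), 0.085 (SE 0.11) and 0.13 (SE 0.12). Markers of other cell types were also present. Of these, 14 of 14 cardiomyocyte, 11 of 11 macrophage and 11 of 12 fibroblast markers read higher in G2-EC-KO, with median log2 changes of 0.31, 0.33 and 0.19, while 10 of 12 smooth muscle and pericyte markers read lower, with a median of -0.15. The size of these shifts rests on single arrays. Without control replicate 1 the macrophage median was 0.11 and the fibroblast median 0.10, and without control replicate 2 the fibroblast median was 0.37. Without G2-EC-KO replicate 1 the macrophage median was 0.22, the cardiomyocyte median 0.60 and the smooth muscle and pericyte median -0.40, and without G2-EC-KO replicate 2 the last of these turned to 0.058. Gata2 itself read 2.17 and 2.46 in G2-EC-KO and 1.86 and 2.17 in control at its brighter probe, a log2 change of 0.29 (SE 0.18). Its dimmer probe read 1.72 and 1.91 in G2-EC-KO and 1.54 and 1.75 in control, a log2 change of 0.17 (SE 0.14). Neither probe thus read lower in G2-EC-KO. The position of these probes relative to the deleted part of the gene is not given in the sources used here, so each direction below rests on the labels.

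Promoters are shown for the members in which a GATA word was found, since the gene named as deleted encodes a GATA-binding factor. RefSeq promoter windows of build GRCm38.p6, 250 bases before to 50 after a start site, were available for 8 of the 9 genes, in 12 windows. No window was available for Plvap, so its promoter was not searched. The word AGATAA was searched on both strands, as were its variants: AGATAG as well as TGATAA, or else TGATAG. Matches that overlapped one another were each counted. They occurred in 3 of 12 windows, 25%, against 29.8% of all 32851 promoter windows, so the members held them about as often as promoters in general. The sequences below run 5′ to 3′ on the strand of the gene, and capitals mark the matched word.
Cav1 (second start site, chr6:17307390-17307689, plus strand): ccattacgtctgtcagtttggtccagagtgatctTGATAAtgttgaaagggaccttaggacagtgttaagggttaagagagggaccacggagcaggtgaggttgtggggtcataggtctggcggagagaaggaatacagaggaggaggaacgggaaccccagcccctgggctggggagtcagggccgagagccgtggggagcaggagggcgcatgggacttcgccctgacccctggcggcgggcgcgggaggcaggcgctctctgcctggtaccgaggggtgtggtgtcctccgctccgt
Cav3 (chr6:112459255-112459554, plus strand): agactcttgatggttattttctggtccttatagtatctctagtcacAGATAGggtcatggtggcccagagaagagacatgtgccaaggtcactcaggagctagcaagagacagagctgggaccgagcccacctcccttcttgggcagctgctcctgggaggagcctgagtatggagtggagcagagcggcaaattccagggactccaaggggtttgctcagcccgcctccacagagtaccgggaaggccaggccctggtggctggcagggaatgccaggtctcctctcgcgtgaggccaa
Pacsin2 (chr15:83432801-83433100, minus strand, 1 of 3 start sites): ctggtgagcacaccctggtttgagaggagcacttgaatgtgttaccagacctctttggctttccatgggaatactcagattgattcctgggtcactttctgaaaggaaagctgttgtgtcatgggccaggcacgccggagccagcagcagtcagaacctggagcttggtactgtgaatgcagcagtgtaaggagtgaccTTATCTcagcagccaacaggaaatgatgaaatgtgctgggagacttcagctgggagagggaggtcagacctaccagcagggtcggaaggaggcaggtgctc
The matched word begins at -216 in Cav1, at -204 in Cav3 and at -51 in Pacsin2, counted from the start site. In Pacsin2 it is AGATAA on the opposite strand. The first start site of Cav1 and the windows of Cav2, Cavin1, Cavin2, Ehd2 and Ehd4 held none of these words, which says only that the letters are not in those windows.

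All 15 member probes were well above background on all 4 arrays, so no value below is a bound. Across the 26900 probes tested, 1 passed an adjusted p of 0.05 (limma, Benjamini-Hochberg), which is 0.00372%. Of the member probes 0 of 15 passed, with adjusted p between 0.41 and 0.94 over all probes tested. At an unadjusted p under 0.05, which 9.62% of all probes had, there was 1 member probe higher in G2-EC-KO, that of Plvap, against 4.89% of all probes. There were 2 lower, both of Cavin1, against 4.73% of all probes. The groups did not overlap at 6 member probes that read higher in G2-EC-KO and at 3 that read lower, together 9 of 15 against 46.4% of all probes, of which 23.8% were higher and 22.6% lower. Taking the brightest probe of each gene, 7 of 9 members read higher in G2-EC-KO and 2 lower. Their median log2 change was 0.12, against 58.1% of 13631 named genes above 0 with a median of 0.041. In a bulk sample fewer cells of a type and less RNA per cell cannot be told apart.

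**Figure D1:**
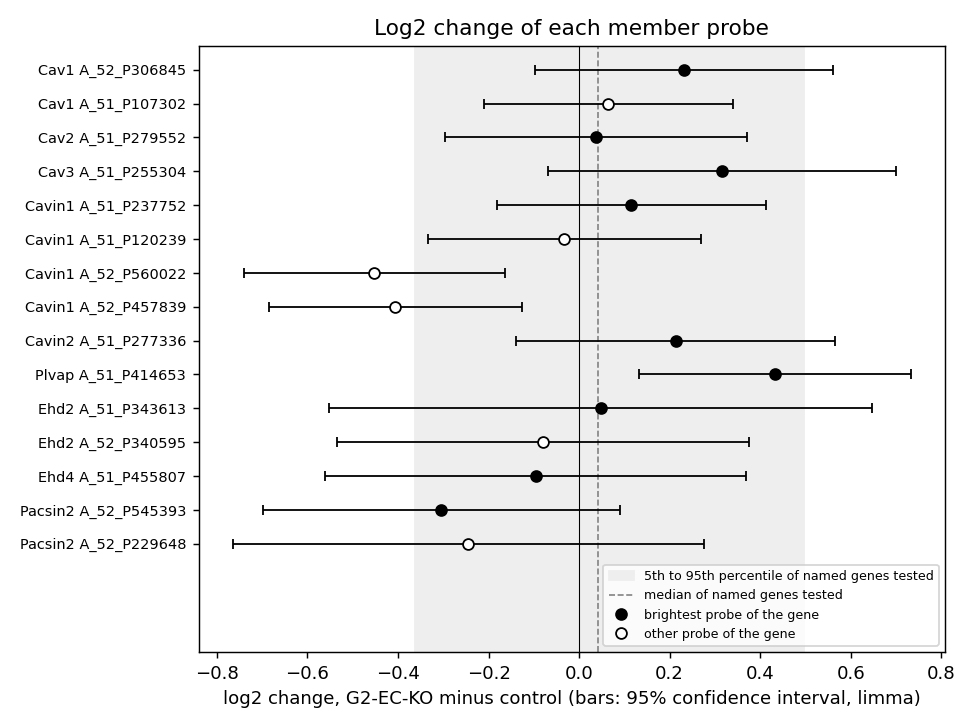
Log2 change of each member probe, G2-EC-KO minus control, on the horizontal axis, with its 95% confidence interval from limma (2 arrays per group). The shaded band spans the 5th to 95th percentile of named genes tested, -0.36 to 0.50. The interval excludes 0 for Plvap, above, and for 2 of the 4 Cavin1 probes, below.

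Cav1 encodes the caveolin without which endothelial cells form no caveolae. Its brighter probe, A_52_P306845, read 7.19 and 7.39 in G2-EC-KO and 7.03 and 7.09 in control. Both G2-EC-KO arrays lay above both control arrays. On the log2 scale the change was 0.23 (SE 0.12), with a 95% confidence interval of -0.096 to 0.56, or a ratio of 1.17. The second Cav1 probe, A_51_P107302, read 2.88 and 2.88 in G2-EC-KO and 2.81 and 2.82 in control. It also showed no overlap, but with a log2 change of only 0.065 (SE 0.10, 95% confidence interval -0.21 to 0.34). Without G2-EC-KO replicate 2 the brighter probe gave 0.13.

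Cav2 encodes the caveolin that depends on CAV1 to reach the plasma membrane, and its gene is the coding gene next to Cav1 on chromosome 6. Its probe is printed at 10 spots on each array, which gives a measure of the error within an array that the other members do not have. The spots spanned 4.02 to 4.16 and 4.18 to 4.30 on the G2-EC-KO arrays and 4.01 to 4.08 and 4.17 to 4.24 on the control arrays. Replicate arrays of 1 group did not overlap at these spots, whereas each group had 1 array near the lower and 1 near the higher level. The SD among spots of 1 array was 0.019 to 0.054, against a gap between replicate arrays of 0.14 in G2-EC-KO and 0.16 in control. The means were 4.16 ± 0.10 in G2-EC-KO and 4.12 ± 0.11 in control (SD, n = 2 each), and the log2 change was 0.037, with an SE of 0.13 and a 95% confidence interval of -0.30 to 0.37.

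**Figure D2:**
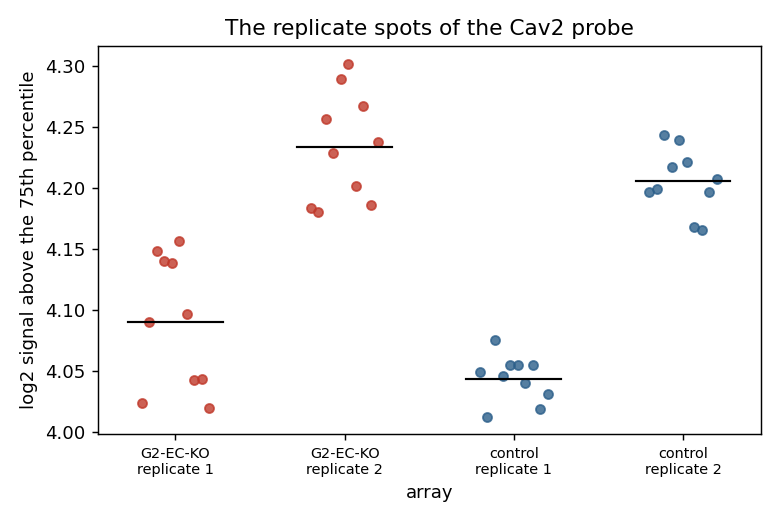
Log2 signal above the 75th percentile of the array at each of the 10 spots of the Cav2 probe, by array, with the mean of the spots as a line. The 2 arrays of each group are further apart than the spots of 1 array, and the groups overlap.

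Cavin1 encodes the coat protein that is required with caveolin for the caveolar shape, and its 4 probes did not give 1 answer. The brightest, A_51_P237752, read 7.72 and 7.84 in G2-EC-KO and 7.64 and 7.69 in control, a log2 change of 0.12 (SE 0.11, 95% confidence interval -0.18 to 0.41). The second, A_51_P120239, read 5.13 and 5.01 in G2-EC-KO and 5.06 and 5.14 in control, with overlap of the groups and a log2 change of -0.033 (SE 0.11, 95% confidence interval -0.34 to 0.27). The 2 brightest probes thus differ in sign and both intervals include 0. With quantile normalization the brightest gave 0.033.

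The 2 dim probes of Cavin1 read lower in G2-EC-KO. Probe A_52_P560022 read -1.29 and -1.31 in G2-EC-KO and -0.80 and -0.90 in control, a log2 change of -0.45 (SE 0.11, 95% confidence interval -0.74 to -0.16; limma, adjusted p = 0.41). Probe A_52_P457839 read -2.37 and -2.34 in G2-EC-KO and -1.93 and -1.98 in control, a log2 change of -0.41 (SE 0.11, 95% confidence interval -0.69 to -0.13; limma, adjusted p = 0.43). Neither pair of arrays overlapped the other, and the replicates within each group lay close together. Taken within each array, where scaling cancels, A_52_P560022 minus the brightest probe was -9.01 and -9.14 in G2-EC-KO and -8.43 and -8.59 in control, a difference between groups of -0.57. The same difference for A_52_P457839 was -10.09 and -10.18 in G2-EC-KO and -9.56 and -9.67 in control, or -0.52 between groups. On these arrays the ratio of the dim probes to the brightest was thus lower in G2-EC-KO, and the cause was not tested. For the second Cavin1 probe the difference between groups was -0.15. The dimmer minus the brighter probe gave -0.17 for Cav1, -0.13 for Ehd2 and 0.060 for Pacsin2. The dim probes stood 5.92 to 23.4 times above local background, against 4544 times or more for the brightest, and with normexp background correction the change of A_52_P457839 was -0.24.

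Cavin2 encodes the cavin that helps to shape the caveolar membrane in endothelium. It read 6.95 and 7.17 in G2-EC-KO and 6.79 and 6.91 in control. The groups did not overlap, but the gap between the 2 G2-EC-KO arrays, 0.22, was as large as the log2 change of 0.21 (SE 0.13, 95% confidence interval -0.14 to 0.57). Without G2-EC-KO replicate 2 the change was 0.10.

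Cav3 encodes the caveolin of muscle, which in the heart is known from cardiomyocytes. It read -0.51 and -0.35 in G2-EC-KO and -0.61 and -0.88 in control. The groups did not overlap and the log2 change was 0.32, with an SE of 0.15 and a 95% confidence interval of -0.068 to 0.70. G2-EC-KO replicate 2, the array with the highest Cav3, also had the highest summed cardiomyocyte signal: the sum over the 14 markers, in multiples of the 75th percentile, was 115 and 160 in G2-EC-KO and 109 and 113 in control. The 14 markers were well above background on all 4 arrays, and those with the highest signal, Actc1, Myl2 and Tnnt2, had log2 changes of 0.12 (SE 0.13), 0.36 (SE 0.20) and 0.26 (SE 0.23). Without G2-EC-KO replicate 2 the median of the cardiomyocyte markers was 0.045, against 0.31 with all arrays, while Cav3 gave 0.24. The part of these cells in the Cav3 signal was not tested. Without control replicate 2 the change of Cav3 was 0.18.

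Plvap had the largest log2 change of the 15 probes in the higher direction. Its product is the structural protein of the diaphragms of caveolae and fenestrae, and in the heart it is known from endocardium and veins more than from capillaries. Plvap read 2.39 and 2.26 in G2-EC-KO and 1.86 and 1.93 in control. Both G2-EC-KO arrays lay above both control arrays by more than the gap between replicates of either group. The difference was 0.43 on the log2 scale (SE 0.11, 95% confidence interval 0.13 to 0.73) or a ratio of 1.35, with an adjusted p of 0.43 in limma. With 1 array left out it lay between 0.37 and 0.49, and across the other settings between 0.42 and 0.45. Of the 6 other endocardial markers tested, 3 read higher and 3 lower in G2-EC-KO, and their median was 0.022 (log2 change). Their summed signal was 21.0 and 20.8 times the 75th percentile in G2-EC-KO and 18.6 and 19.2 times in control. Most of that sum was Cgnl1 alone, which read 3.88 and 3.91 in G2-EC-KO and 3.68 and 3.73 in control. Of the other 5, Npr3, a natriuretic peptide clearance receptor gene of endocardium, read 0.38 and 0.55 in G2-EC-KO and -0.45 and -0.083 in control. Nfatc1, a transcription factor gene of endocardium, had a log2 change of -0.17 (SE 0.15). The markers Gata5 and Hapln1 were not well above background. Of the 8 venous markers 3 read higher and 5 lower, with a median of -0.043 that lay between -0.34 and 0.027 with 1 array left out. The part of endocardial or venous cells in the Plvap signal was not tested.

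**Figure D3:**
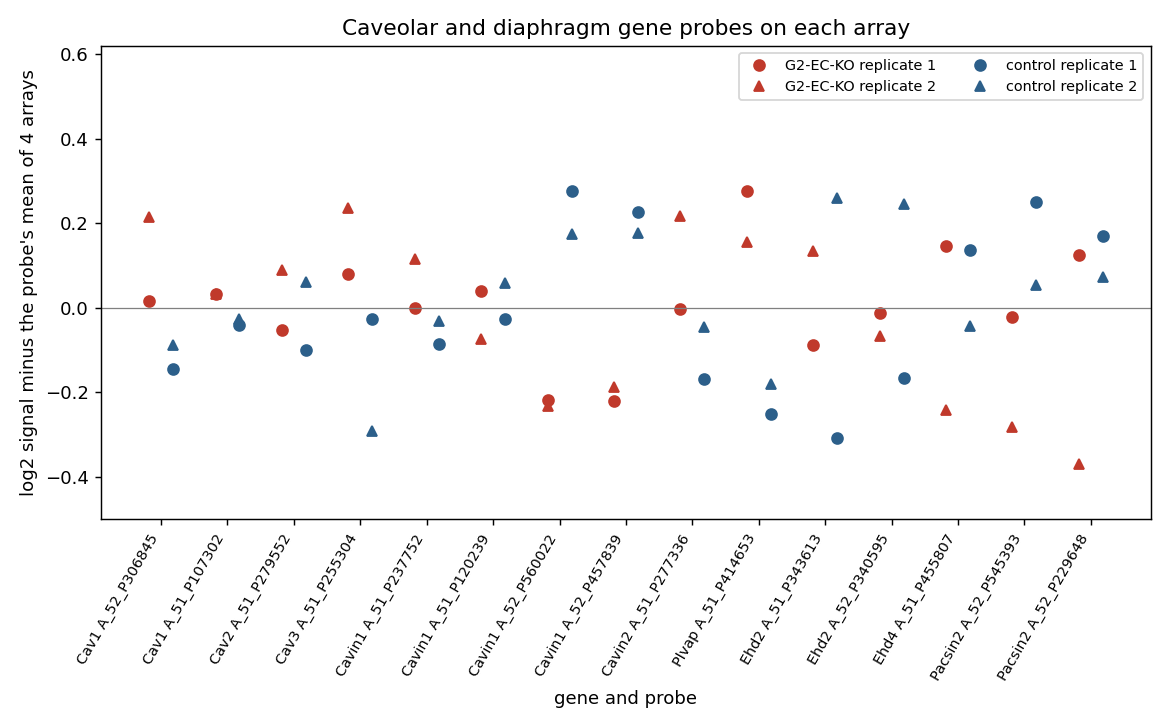
Log2 signal of each member probe on each array, minus the mean of that probe over the 4 arrays, with G2-EC-KO arrays left of control arrays at each probe. Plvap has both G2-EC-KO arrays above both control arrays, the 2 dim Cavin1 probes have them below, and at Cav2, Ehd2 and Ehd4 the groups overlap.

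Pacsin2 encodes the F-BAR protein that bends the membrane at the caveolar neck, and both of its probes read lower in G2-EC-KO. The brighter, A_52_P545393, read 1.36 and 1.10 in G2-EC-KO and 1.64 and 1.44 in control, without overlap, and the log2 change was -0.30, with an SE of 0.15 and a 95% confidence interval of -0.70 to 0.090. The other, A_52_P229648, read -0.16 and -0.65 in G2-EC-KO and -0.11 and -0.21 in control, with overlap, and the log2 change was -0.25, with an SE of 0.20 and a 95% confidence interval of -0.77 to 0.28. The second value rests on G2-EC-KO replicate 2, without which it was 0.0031, and without the same array the brighter probe gave -0.17.

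Ehd2 encodes the ATPase that holds caveolae at the cell surface, and its 2 probes overlapped between groups. The brighter, A_51_P343613, read 2.98 and 3.20 in G2-EC-KO and 2.76 and 3.33 in control, so the widest gap was between the control arrays, and the log2 change was 0.048, with an SE of 0.23 and a 95% confidence interval of -0.55 to 0.65. The dimmer, A_52_P340595, also had its widest gap between the control arrays and a log2 change of -0.079 (SE 0.17). Ehd4, a relative with an overlapping role at caveolae and in endosomal recycling, read 4.28 and 3.89 in G2-EC-KO and 4.27 and 4.09 in control. Its log2 change was -0.096, with an SE of 0.18 and a 95% confidence interval of -0.56 to 0.37, and G2-EC-KO replicate 2 was the lowest array. That array also had the lowest summed smooth muscle and pericyte signal, 272 times the 75th percentile, against 381 in the other G2-EC-KO array and 376 and 337 in control, and its part in the Ehd4 and Pacsin2 values was not tested.

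Among the 9 genes at their brightest probe, the difference between groups was larger than the gap between replicates of both groups for Cav1, Cav3, Plvap and Pacsin2, 4 of 9 or 44.4%, against 31.1% of all named genes tested. The median gap between replicates was 0.20 in G2-EC-KO and 0.16 in control for the members, and 0.17 in G2-EC-KO and 0.11 in control for all named genes. Leaving out 1 array turned the sign at up to 5 of the 15 probes, those of Cav2, Ehd4 and the brighter Ehd2 probe, the second Cavin1 probe and the dimmer Pacsin2 probe when G2-EC-KO replicate 2 was left out. The dimmer Ehd2 probe turned without control replicate 2. The signs of both Cav1 probes, Cav3, Cavin2, Plvap, the brightest and the 2 dim Cavin1 probes and the brighter Pacsin2 probe held with each array left out.

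**Figure D4:**
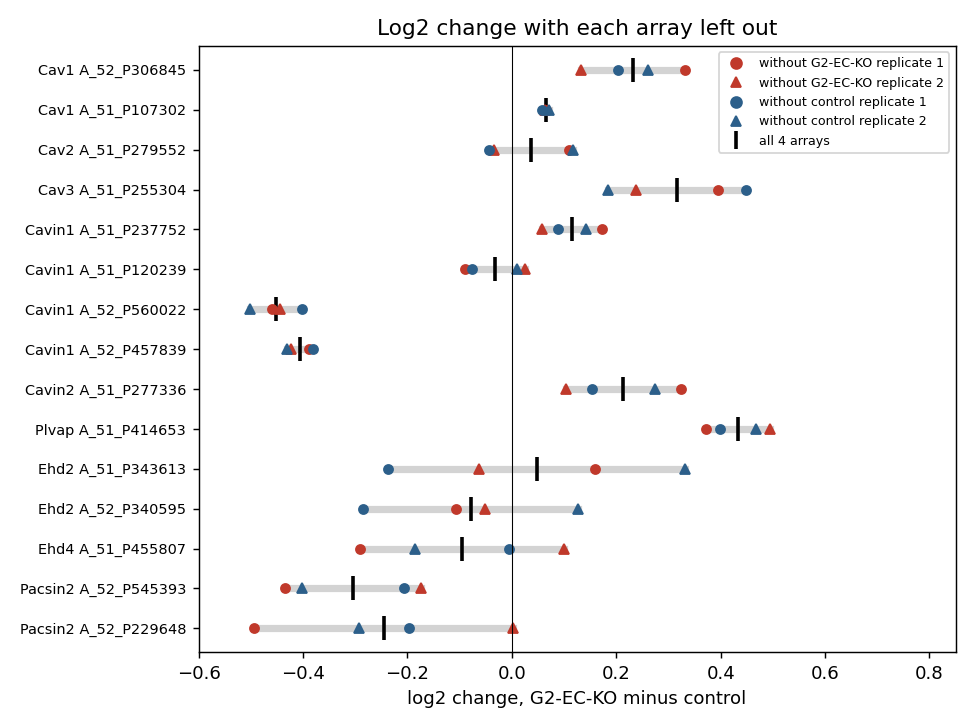
Log2 change of each member probe, G2-EC-KO minus control, with all 4 arrays (bar) and with each array left out in turn (points, joined by a grey band). The points of Plvap lie between 0.37 and 0.49 and those of the dim Cavin1 probes between -0.50 and -0.38, while those of Ehd2, Ehd4 and Cav2 fall on both sides of 0.

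By the distance between values centred on the mean of 4 arrays, the named genes nearest to the brighter Cav1 probe were Spg20, Cox7b and Snrpn, at distances of 0.010, 0.014 and 0.016 log2 units. Nearest to Cav3 were Pfdn4, Wdr55 and Poc1a, at 0.017, 0.044 and 0.047. Nearest to Plvap were Rps4l, Nt5dc2 and Elp6, at 0.033, 0.060 and 0.063. With 13130 candidate genes and 4 arrays, near matches are easily found, and these names describe the arrays only.

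Other genes of caveolae and uptake routes were described from lists written from general knowledge of the pathway. In each list 0 genes passed the adjusted threshold (limma), as for 0 of 13631 named genes, or 0%. At an unadjusted p under 0.05 the lists held 0 of 13 relatives and other coat or neck genes, 1 of 17 caveolar cargo genes, 1 of 16 diaphragm and permeability genes and 1 of 20 clathrin genes, against 8.18% of named genes. The relatives and coat or neck genes had 5 higher and 8 lower and a median log2 change of -0.037. Cavin3, a further cavin, gave 0.082 (SE 0.11), and Cavin4, the cavin of muscle, gave 0.20 (SE 0.17). The EHD ATPase genes of endosomal recycling gave 0.16 (SE 0.12) for Ehd1 and -0.16 (SE 0.15) for Ehd3. The flotillin gene Flot2, of a separate kind of membrane domain, gave -0.20 (SE 0.12). Ehd1, Cavin3 and Flot2 showed no overlap of the groups.

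Caveolar cargo genes had 7 higher and 10 lower and a median of -0.025. Nos3, the endothelial nitric oxide synthase whose product is held inactive by binding CAV1, read 4.49 and 4.20 in G2-EC-KO and 4.89 and 4.80 in control, a log2 change of -0.50 (SE 0.14, 95% confidence interval -0.88 to -0.12; limma, adjusted p = 0.46). It was the gene of this list at an unadjusted p under 0.05, and its groups did not overlap. The cation channel gene Trpc1 gave -0.40 (SE 0.22) and the BMP receptor genes Acvrl1 and Bmpr2 gave -0.24 (SE 0.15) and -0.22 (SE 0.15). The VEGF receptor gene Kdr gave -0.071 (SE 0.13).

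Diaphragm and permeability genes had 7 higher and 9 lower and a median of -0.039. Nrp2, a coreceptor for VEGF and semaphorins, read 5.53 and 5.72 in G2-EC-KO and 5.24 and 5.26 in control, a log2 change of 0.37 (SE 0.12), and was the gene of this list at an unadjusted p under 0.05. Vegfa, the ligand that is known to induce fenestrae, gave -0.22 (SE 0.19). The tight junction gene Cldn5 gave -0.22 (SE 0.15), and Mfsd2a, a lipid transporter gene that restrains caveolar transport in brain endothelium, gave 0.22 (SE 0.27). Clathrin genes, of the other main uptake route, had 7 higher and 13 lower and a median of -0.040. The log2 changes were -0.42 (SE 0.17) for the amphiphysin gene Amph, -0.35 (SE 0.14) for the early endosome gene Eea1, -0.29 (SE 0.11) for the light chain gene Cltb and 0.24 (SE 0.12) for the AP2 subunit gene Ap2s1. The medians of the 4 lists lay between -0.040 and -0.025, against 0.041 for all named genes, but that of 3 lists turned sign with 1 array left out. The range was -0.046 to 0.085 for the relatives and coat or neck genes, -0.086 to 0.031 for cargo, -0.079 to 0.012 for diaphragm and permeability genes and -0.085 to -0.0090 for clathrin genes.

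**Figure D5:**
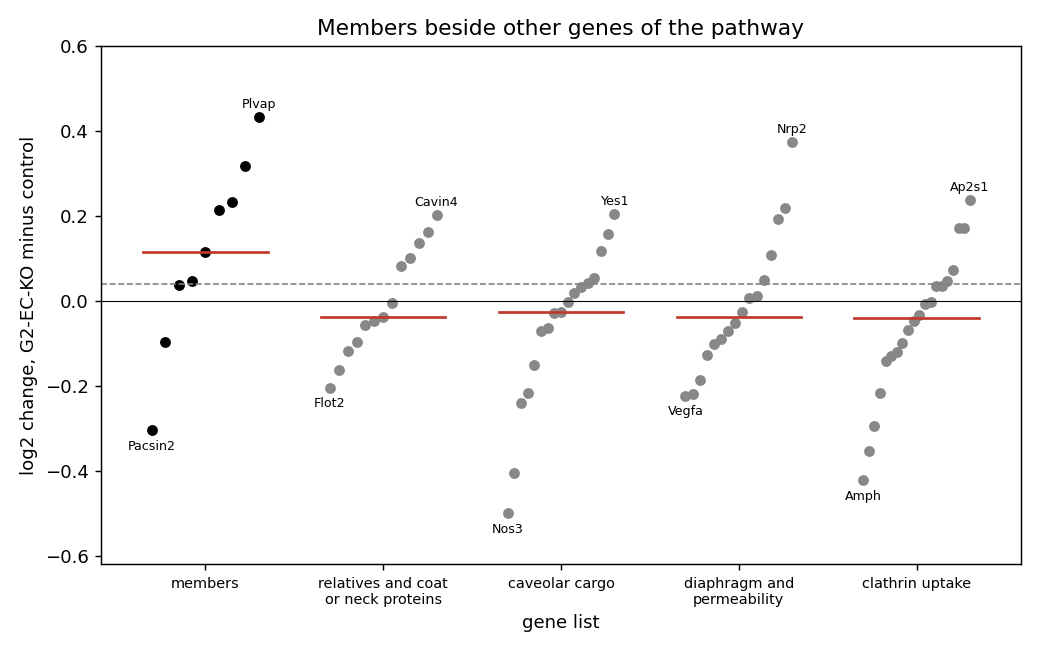
Log2 change, G2-EC-KO minus control, of the 9 members at their brightest probe and of 4 lists of related genes, each point 1 gene, ordered by value within its list. Red lines are medians (0.12 for the members and -0.025 to -0.040 for the lists) and the dashed line is the median of named genes tested, 0.041.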

How the data were processed

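RNA of 2 G2-EC-KO and 2 control samples was measured on 1-colour arrays. The authors deposited scanner files with spot intensity values on a linear scale, and per the file headers these came from Agilent Feature Extraction 10.7.3.1 (design 014868, mm9). Version 10.5 stands in the submitters' processing notes. The processed signal was used, which is not normalized between arrays. Control spots and 87 to 101 outlier spots per array were removed, signals were divided by the 75th percentile of their array and put on the log2 scale, and repeat spots were averaged. Probes well above background on at least 2 of 4 arrays were tested, 26900 in all. The deposited value table, with array medians of 135.5 and 126 in G2-EC-KO and 154 and 151 in control, equals the median spot signal minus local background plus 16 in 100% of rows. Its scale is linear, it is not centred, and it served as an alternative, floored at 1. The files hold no mean spot signal, so normexp used the median. Symbols came by accession from RefSeq (GRCm38.p6) for 26933 of 41174 probes.

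The comparison used limma 3.58.1 under R 4.3.3, with group alone in the model, two-sided, with Benjamini-Hochberg adjustment over all probes tested, on 2 residual and 2.58 prior degrees of freedom. The fit was tested on simulated data, with added changes larger than that of any member probe. That test says nothing about changes of the size given here. With 2 arrays against 2, the smallest p of an exact permutation test is 0.333. The members and lists were chosen with earlier results of these data known, and no set test was run. Named were every member, and up to 4 genes of each pathway list with the largest absolute change plus Nos3, Kdr, Flt1 and Cavin3. Also named were the 3 brightest markers of the endothelial, capillary and cardiomyocyte lists, and the 3 genes nearest to Cav1, Cav3 and Plvap. The other marker lists had no genes named by brightness. Npr3, Nfatc1, Cgnl1, Gata5, Hapln1 and Erg were named after their values were seen, as were the adipocyte markers. Precision is limited by the number of arrays.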

Additional observations from a re-analysis of the deposited data

How the results depend on the processing

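No member probe passed the adjusted threshold in limma under any alternative run, 0 of 15 in each, and no alternative that kept all 4 arrays turned the sign of a member probe. The lowest adjusted p of a member was 0.32 with all arrays (normexp) and 0.19 without G2-EC-KO replicate 1. The count of all probes past the threshold, 1, became 2 with normexp, with quantile normalization and with median centring. It was 0 without a filter on dim probes, with the filter on all 4 arrays, with an intensity trend and with the replicate block, and 0 to 8 with 1 array left out. The cause was not tested. The median log2 change of the members, 0.12, was 0.042 with quantile normalization and 0.037 with the mean over the probes of a gene, which includes the dim Cavin1 probes, and 0.089 to 0.18 with 1 array left out. With the replicate block it was 0.12 and no member call changed. The labels do not say that equal replicate numbers pair samples, and the deviations of same-numbered arrays from their group means correlated at 0.044 over the probes tested. The number of arrays, 2 per group, limits every value, and 14 of the member probes have 1 spot per array.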

Other observations

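Marker lists not described above gave these values. Of the 9 capillary markers 5 read higher and 4 lower in G2-EC-KO, their median log2 change being 0.014 and -0.15 to 0.16 with 1 array left out. The brightest of them, Fabp4, a fatty acid binding protein gene of heart capillaries, had a log2 change of 0.15 (SE 0.11). The next brightest, Rgcc and Aqp1, had log2 changes of -0.055 (SE 0.14) and -0.025 (SE 0.13). The 7 lymphatic markers had a median of -0.22, with 2 higher and 5 lower, and of -0.35 to -0.070 with 1 array left out. Adipocytes, which are rich in caveolae, were represented by 4 markers that were tested, all of which read lower in G2-EC-KO. Their median was -0.95, and it ranged from -1.80 to -0.40 with 1 array left out. It was -0.29 with normexp and -0.54 with the deposited value table, and it lies between Adipoq and Cidec, each well above background on only 3 of 4 arrays. The signal summed over the 7 adipocyte markers with a probe was 3.52 and 3.16 times the 75th percentile in G2-EC-KO. In control it was 4.37 and 3.62 times. Most of that sum was the marker Slc2a4 alone, with a log2 change of -0.16 (SE 0.17), so it says little about the other adipocyte markers. Of the 7, Plin1, Retn and Lep were not well above background. The 3 erythroid markers that were tested had a median of 0.43, which was -0.031 without G2-EC-KO replicate 1 and 0.91 without G2-EC-KO replicate 2. The signal summed over the 4 erythroid markers with a probe was 149 and 78.1 in G2-EC-KO and 86.2 and 74.7 in control.

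Between arrays of 1 group, 6 of 9 members read higher on replicate 2 than on replicate 1 in G2-EC-KO, against 54.5% of named genes, and 6 of 9 in control, against 49.9% of named genes. Cav1, Cav2, Cavin1, Cavin2 and Ehd2 were among the 6 in both groups, and Ehd4 and Pacsin2 were in neither.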
